A study of Mus musculus with 10 samples.

Results

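The genes described here encode the proteins of the mitochondrial ribosome, and their transcripts were measured in αTC1 cells after 48 h in 10 μM enzalutamide or in the solvent DMSO. They were taken as every row of the deposited count table whose symbol is Mrpl (large subunit) or Mrps (small subunit) followed by a number, with pseudogene symbols left out. This gave 76 genes of the 33212 in the table, 47 of the large and 29 of the small subunit. The cells are a mouse line from a glucagon-secreting pancreatic α cell tumour, which arose in mice with a viral T antigen transgene under the glucagon promoter. They were grown in low-glucose medium, and enzalutamide is an androgen receptor antagonist used against prostate cancer. Each treatment had 5 polyadenylated RNA libraries labelled as biological replicates of this 1 cell line. The labels name no dose or time other than these, and do not say whether replicates came from separate cultures, so the p-values cover only the variation among the libraries at hand.

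Libraries held 59557697 to 68603842 counts, and all 76 genes passed the filter on low counts, with 466 to 9966 counts each in a library. The α cell label was borne out by its markers, since the 7 fixed α cell genes were all detected. Their summed level was 18358 to 19583 CPM (counts relative to the TMM-scaled library size) in DMSO and 10878 to 12148 CPM in enzalutamide. Most of that difference lay in Gcg (mean 15269 CPM in DMSO and 8466 CPM in enzalutamide) and Ttr (1153 and 496 CPM), whereas Irx2 (187 and 189 CPM) and Pcsk2 (2224 and 2270 CPM) were about level. The 5 β cell genes summed to at most 2.84 CPM in any library, with 2 of them, Ins1 and Pdx1, at 0 throughout. Acinar markers summed to 4.72 to 8.09 CPM and ductal markers to 8.49 to 11.9 CPM, nearly all of it from Cela1 and Sox9, with Prss1, Amy2a1 and Krt19 at 0. Those of δ, PP, fibroblast, endothelial and immune cells summed to at most 1.39 CPM per cell type. The lower Gcg and Ttr moved with the treatment, and their part in the results below was not tested. In bulk RNA, fewer cells with a transcript and less of it per cell cannot be told apart.

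Mitochondria carry their own ribosomes, which translate the few mRNAs of the mitochondrial genome into core subunits of the respiratory chain and ATP synthase. The ribosomal RNAs are encoded by mitochondrial DNA, whereas every protein of the ribosome is encoded in the nucleus, made in the cytosol and imported. Some of these proteins descend from bacterial ribosomal proteins and others occur only in mitochondria. The large subunit forms the peptide bond and holds the tunnel through which the new chain leaves, and the small subunit reads the mRNA.

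Expression of these genes differed little between the treatments, and the differences that passed the test were mostly falls. In a quasi-likelihood fit with edgeR over 14156 genes, at a Benjamini-Hochberg adjusted p under 0.05, 17 of the 76 genes were lower and 1 was higher in enzalutamide. Of all genes tested, 37.8% passed in either direction, 18.8% lower and 19.0% higher. The share of lower genes among the 76 (22.4%) was thus close to that of all genes, and was almost the same as among the 7549 genes in the same range of DMSO CPM (22.0%), while the share of higher genes (1.32%) was smaller than the background. The median log2 fold change (enzalutamide against DMSO throughout) was -0.07 over the 76 genes and 0.01 over all genes tested, and 59 of the 76 values were below 0, against 48.7% of all genes. All changes were small. The largest fall was 19.7%, the smallest fall that passed was 8.46%, and the 1 rise was 15.3%.

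Enzalutamide library 5 stood apart for this gene family, so the summaries are also given without it. It had the lowest CPM of all 10 libraries for 55 of the 76 genes, and it was the highest enzalutamide library for 0 of them. The median log2 ratio of the 76 genes to their DMSO means was -0.23 in this library, against -0.07, 0.02, -0.02 and -0.06 in enzalutamide libraries 1 to 4, and 0.00064 over all genes in the same library. Short genes outside the family were also low in it. The 916 other genes with an exon length of at most 2172 bases and a level in the same range had a median of -0.16. That limit is the median length of the family, so its longer genes have no counterpart in this set. Without library 5, 14 of the 76 genes were lower and 2 higher, the median was -0.03 and 46 values were below 0. Mrpl41, Mrps34 and Mrpl42 were no longer called and Mrpl34 was called higher, while the other 14 falls and the rise of Mrps9 held. Library 2 lay at the other end, being the highest enzalutamide library for 41 genes, and without it 25 genes were lower.

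**Figure D1:**
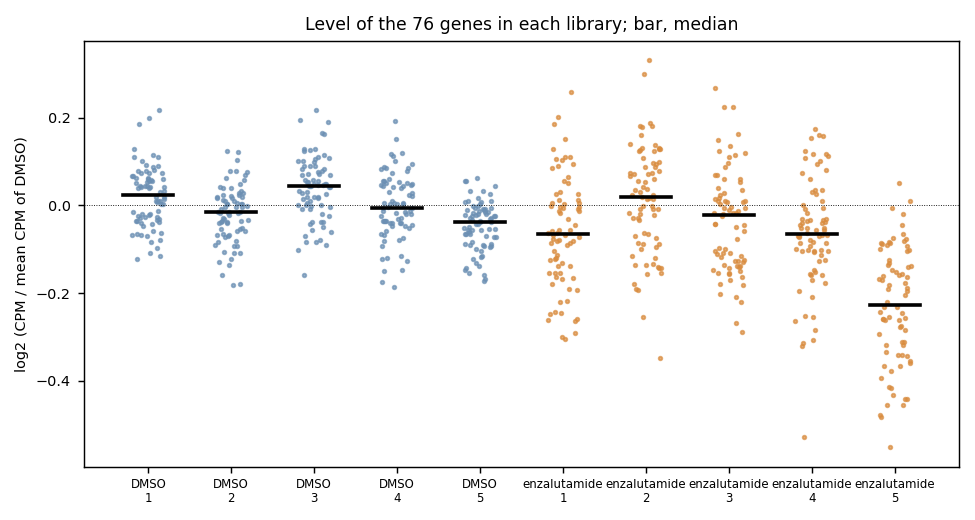
Each point is 1 of the 76 genes in 1 library, as the log2 ratio of its CPM to its mean CPM in DMSO, and the bar is the median. Medians of the DMSO libraries lie between -0.04 and 0.04, those of enzalutamide libraries 1 to 4 between -0.07 and 0.02, and that of enzalutamide library 5 is -0.23.

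The start regions of these genes carry motifs common among genes for mitochondrial proteins, and 4 of them are shown: a gene that fell with an ETS motif (Mrpl51), another with a YY1 motif (Mrpl49), an adjacent pair's small subunit member (Mrps11), and the gene that rose (Mrps9). These genes and the motifs were chosen after their values were seen. Each region runs from 250 bases before to 50 bases after the RefSeq start of the gene on GRCm38.p6, printed 5′ to 3′ on the gene's strand with the matched motif in capitals. They lie at chr6:125191950-125192249 (plus strand), chr19:6057706-6058005 (minus), chr7:78782881-78783180 (plus) and chr1:42850983-42851282 (plus).
Mrpl51: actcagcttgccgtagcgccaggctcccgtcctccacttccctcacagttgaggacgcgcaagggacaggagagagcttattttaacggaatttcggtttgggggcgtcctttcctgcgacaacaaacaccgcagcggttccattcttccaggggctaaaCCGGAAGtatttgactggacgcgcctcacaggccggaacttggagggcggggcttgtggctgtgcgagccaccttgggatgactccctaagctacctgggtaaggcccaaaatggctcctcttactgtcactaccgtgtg
Mrpl49: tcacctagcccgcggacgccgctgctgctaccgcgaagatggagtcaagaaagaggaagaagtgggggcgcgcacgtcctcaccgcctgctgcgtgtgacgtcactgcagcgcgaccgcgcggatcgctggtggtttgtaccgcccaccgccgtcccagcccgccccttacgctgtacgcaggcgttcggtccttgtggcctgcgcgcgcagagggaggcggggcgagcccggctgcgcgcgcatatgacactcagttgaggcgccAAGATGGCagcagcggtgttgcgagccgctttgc
Mrps11: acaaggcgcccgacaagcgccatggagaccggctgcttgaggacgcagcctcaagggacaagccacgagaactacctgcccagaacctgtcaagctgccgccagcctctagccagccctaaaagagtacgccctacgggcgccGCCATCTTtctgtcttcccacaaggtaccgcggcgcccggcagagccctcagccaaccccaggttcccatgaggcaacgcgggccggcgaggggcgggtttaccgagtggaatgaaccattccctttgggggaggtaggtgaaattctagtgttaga
Mrps9: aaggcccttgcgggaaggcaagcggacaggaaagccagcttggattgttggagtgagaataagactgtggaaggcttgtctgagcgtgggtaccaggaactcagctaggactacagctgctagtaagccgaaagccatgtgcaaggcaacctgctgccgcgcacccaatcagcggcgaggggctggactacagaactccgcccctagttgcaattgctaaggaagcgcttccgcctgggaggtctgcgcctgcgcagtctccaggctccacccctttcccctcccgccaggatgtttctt

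Of the 76 genes, 67 had such a region, and 4 motifs were searched on both strands. The ETS motif CCGGAAG, bound by the GABP factor among others, was in 24 of the 67 regions (35.8%) and in 19.9% of the 9912 tested genes with a region. The YY1 motif AAGATGGC was in 12 (17.9%, against 5.23%), and the NRF1 motif GCATGCGC in 8 (11.9%, against 6.08%). The ATF4 motif TGATGCAA was in 0 regions, against 0.716% of all. In 31 regions none of the 4 was found. Among the 14 genes that fell and had a region, the ETS motif was in 4, YY1 in 2 and NRF1 in 2. In the printed regions the capitals mark an ETS match in Mrpl51, a YY1 match just after the start in Mrpl49, and a YY1 match on the opposite strand in Mrps11. The Mrps9 region held none of the 4.

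In the large subunit 13 of 47 genes were lower and 0 higher, with a median log2 fold change of -0.07. At an unadjusted p under 0.05, 1 of the 47 was higher, and DESeq2 and limma-voom also called 0 higher. The largest falls were those of Mrpl54 and Mrpl49. Mrpl54 (chromosome 10, 81264713 to 81266934 of GRCm38/mm10) encodes a mitochondria-specific subunit protein. It was at 27.7, 27.1, 31.9, 30.7 and 28.7 CPM in DMSO libraries 1 to 5 and at 27.0, 24.5, 24.3, 20.3 and 21.3 CPM in enzalutamide. The groups did not overlap, though by only a small margin, and the log2 fold change was -0.32 (SE 0.0730, adjusted p = 0.00224). Without enzalutamide library 5 it was -0.28.

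Mrpl49 (chromosome 19, 6053622 to 6057785), another mitochondria-specific subunit, was at 65.7, 54.9, 64.9, 58.2 and 56.7 CPM in DMSO and at 50.1, 47.2, 51.5, 50.3 and 45.0 CPM in enzalutamide. All DMSO libraries were above all enzalutamide libraries, and the log2 fold change was -0.30 (SE 0.0553, adjusted p = 0.000356). Mrpl51 (chromosome 6, 125191801 to 125196269), also found only in mitochondria, had the lowest adjusted p of the family. Its level was 131, 129, 134, 131 and 125 CPM in DMSO and 110, 115, 117, 115 and 104 CPM in enzalutamide. The groups were well apart, and the log2 fold change was -0.21 (SE 0.0363, adjusted p = 0.000162).

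Among the descendants of bacterial proteins, Mrpl28 (chromosome 17, 26123500 to 26126613) fell most. It was at 82.7, 79.6, 76.3, 78.5 and 74.5 CPM in DMSO and at 66.2, 73.7, 64.1, 62.7 and 58.7 CPM in enzalutamide. The highest enzalutamide library came close to the lowest DMSO library without reaching it (log2 fold change -0.27, SE 0.0516, adjusted p = 0.000521). Mrpl54, Mrpl49 and Mrpl28 were the 3 called genes that changed by more than 1.2-fold. Mrpl16, which lies near the peptidyl transferase centre, fell from 30.0 ± 1.51 to 25.8 ± 1.42 CPM (mean ± SD, n = 5 each; log2 fold change -0.22, edgeR adjusted p = 0.00342).

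**Figure D2:**
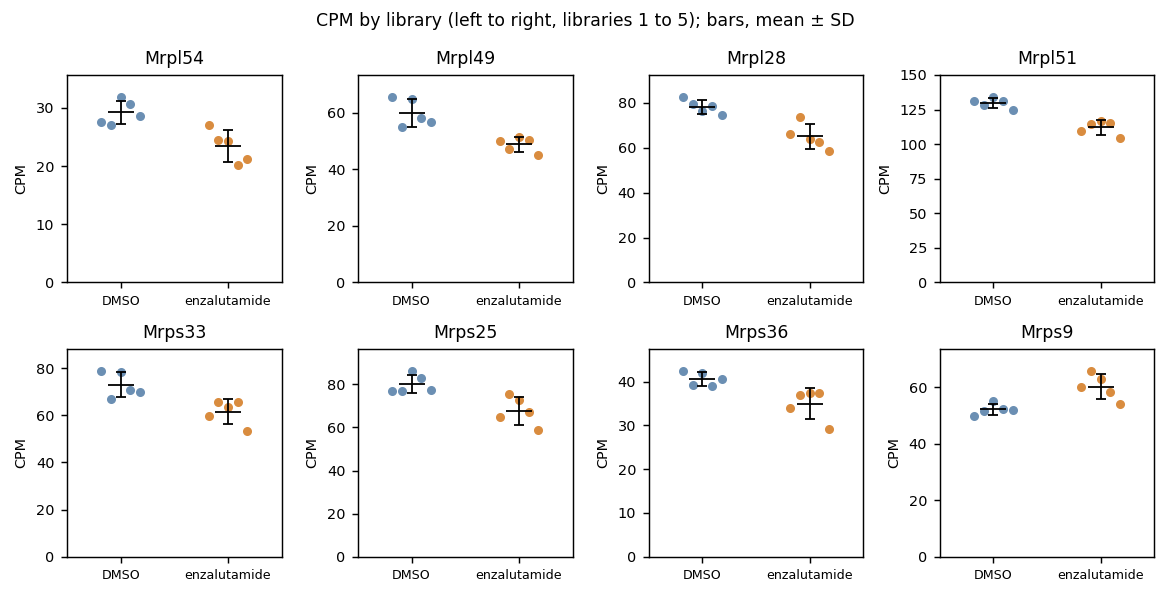
CPM of 8 genes in each library, with DMSO libraries in blue and enzalutamide libraries in orange, ordered 1 to 5 from left to right; bars give the mean and SD. The groups do not overlap for the first 7 genes, and for Mrps9 enzalutamide library 5 (54.2 CPM) lies below DMSO library 3 (55.3 CPM).

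The remaining large subunit falls were of similar size. Mrpl19 and Mrpl18 (log2 fold change -0.20 each), Mrpl17 (-0.19) and Mrpl9 (-0.15) descend from bacterial proteins. Mrpl18 belongs, like Mrpl46 (-0.20), to the central protuberance at the top of the subunit, and Mrpl17 lies at the exit of the peptide tunnel. Mrpl44 (-0.20), which has a fold related to RNase III, had no overlap between groups, and it lost its call without DMSO library 4 (adjusted p = 0.0532). Mrpl41 (-0.21) and Mrpl42 (-0.14, adjusted p = 0.0482) had overlapping groups. Mrpl42 was the least secure call, kept in 7 of 20 alternative analyses. Groups did not overlap for 11 large subunit genes, all lower. Over all genes tested, 13.7% had groups that did not overlap in that direction and 13.1% in the other.

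Each functional site of the large subunit was assigned only a few genes, too few to show whether a site moved as a whole. Of all genes tested, 18.8% were lower and 37.8% passed in either direction. Of 7 genes around the peptide exit tunnel 1 was lower (Mrpl17). The other 6 included Mrpl45, which helps anchor the ribosome at the inner membrane (log2 fold change 0.06, 95% interval -0.05 to 0.18). Mrpl45 passed, as higher, when trends with GC content and length were removed and enzalutamide library 5 was left out. Of 6 central protuberance genes 2 were lower, and of 4 around the peptidyl transferase centre 1 was, Mrpl16. In the stalk that recruits translation factors, 0 of 3 passed with edgeR, DESeq2 or limma-voom, and 0 at an unadjusted p under 0.05. Its member Mrpl12, which in human cells also binds the mitochondrial RNA polymerase, was at 145, 151, 143, 142 and 143 CPM in DMSO and at 144, 148, 140, 141 and 113 CPM in enzalutamide. Enzalutamide libraries 1 to 4 were within or near the DMSO range and library 5 alone was low (log2 fold change -0.07, SE 0.0552, adjusted p = 0.321). Mrpl12 did pass when per-library trends with GC content and length were removed, both with and without enzalutamide library 5.

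In the small subunit 4 of 29 genes were lower and 1 was higher, and the median log2 fold change was -0.03. Mrps33, a mitochondria-specific protein, was at 78.8, 67.0, 78.2, 70.9 and 69.7 CPM in DMSO and at 59.6, 65.5, 63.4, 65.7 and 53.2 CPM in enzalutamide. The groups did not overlap, and the log2 fold change was -0.25 (SE 0.0594, adjusted p = 0.00319). Mrps25, also mitochondria-specific, was at 76.9, 76.8, 86.1, 82.9 and 77.3 CPM in DMSO and at 64.8, 75.3, 72.6, 67.1 and 58.9 CPM in enzalutamide. Again all DMSO values were the higher ones (log2 fold change -0.24, SE 0.0574, adjusted p = 0.00299). Mrps34 fell by 0.13 on the log2 scale (adjusted p = 0.0262 by edgeR) and lost its call under total-count scaling and without 3 libraries, DMSO 2 and enzalutamide 3 and 5.

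Mrps36 carries a small subunit symbol but its protein is now known as an adaptor of the oxoglutarate dehydrogenase complex of the citric acid cycle. It was at 42.4, 39.2, 42.1, 39.0 and 40.7 CPM in DMSO and at 34.0, 37.0, 37.3, 37.3 and 29.2 CPM in enzalutamide. The groups did not overlap, library 5 was again lowest, and the log2 fold change was -0.22 (SE 0.0620, adjusted p = 0.00982). Without Mrps36, 16 of 75 genes of the family were lower. The body and platform of the small subunit were assigned 9 genes, all with a bacterial homologue. Mitochondria-specific proteins, Mrps25, Mrps33 and Mrps34 among them, were assigned no site in this subunit. Of the 9 genes, 0 passed with edgeR, DESeq2 or limma-voom, and 0 had an unadjusted p under 0.05. By edgeR 37.8% of all genes tested passed. In other alternatives, Mrps11 and Mrps15 passed as lower with GC and length trends removed, as did Mrps15 without enzalutamide library 2. With the trends removed and enzalutamide library 5 left out, Mrps15 passed as lower and Mrps6 as higher.

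Mrps9 (chromosome 1, 42851233 to 42905683), a protein of the small subunit head, was the 1 gene of the family that rose. It was at 49.9, 51.7, 55.3, 52.4 and 52.1 CPM in DMSO and at 60.1, 65.8, 62.9, 58.4 and 54.2 CPM in enzalutamide. Enzalutamide libraries 1 to 4 were above every DMSO library, and library 5 was within the DMSO range. The log2 fold change was 0.21 (SE 0.0498, adjusted p = 0.00328), and 0.24 without library 5. The other 4 genes assigned to the head were Mrps7, Mrps10, Mrps14 and Mrps24, all with a bacterial homologue. They had log2 fold changes of -0.13 to -0.01 and did not pass. No mitochondria-specific protein was assigned to a site of the small subunit, so the list of head genes may be incomplete.

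**Figure D3:**
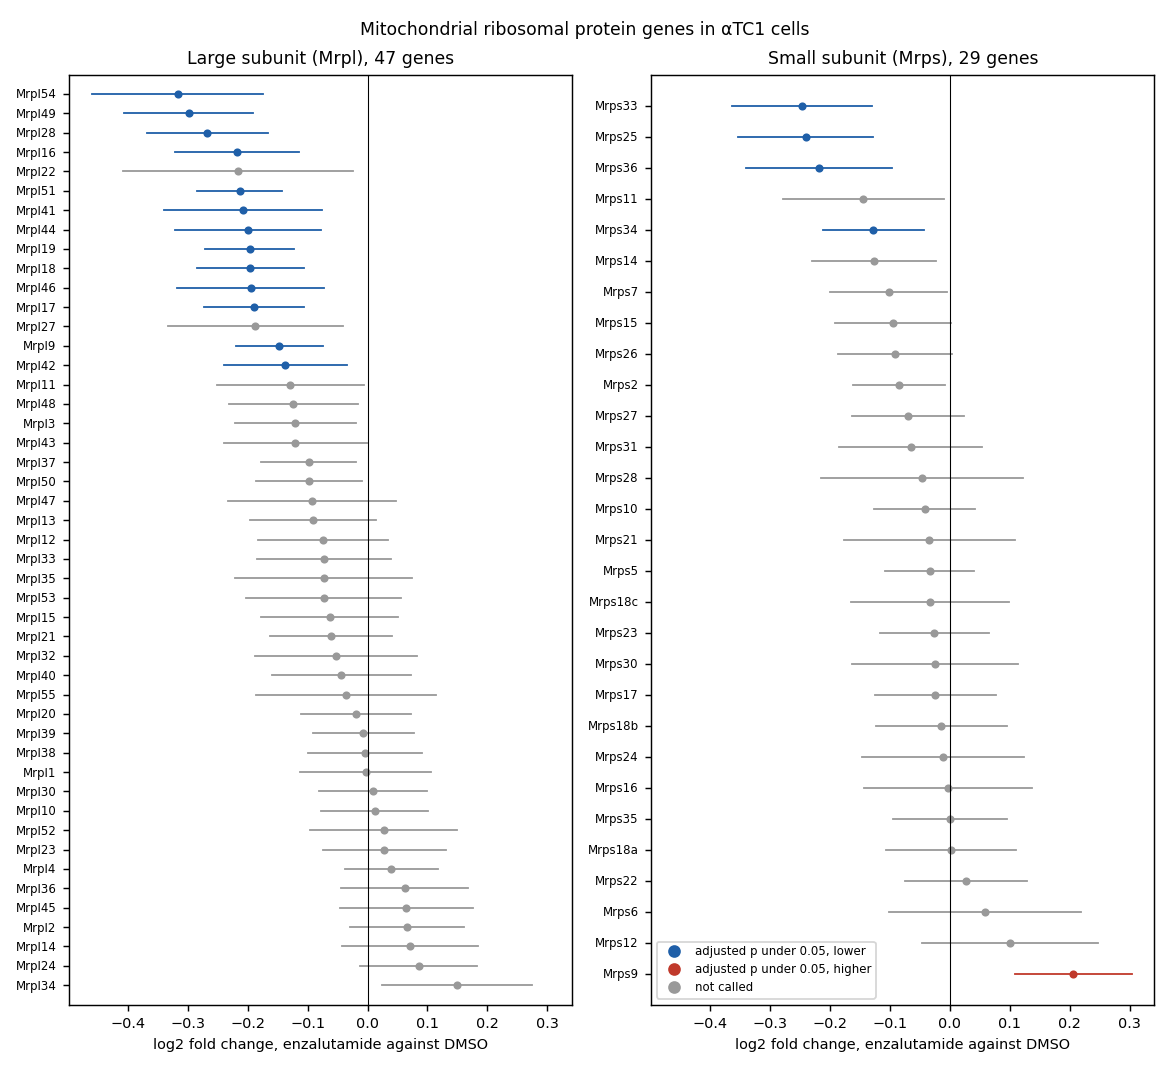
Log2 fold change of each of the 76 genes with its 95% interval, ordered within the large and the small subunit; blue marks genes called lower, red higher and grey not called. Most points lie left of 0, with Mrpl54 at -0.32 and Mrps9 at 0.21 as the extremes.

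For the 58 genes that did not pass, the intervals bound what could have been missed. In 53 of them the whole 95% interval lay within 0.25 of 0 on the log2 scale. The widest lower bound was that of Mrpl22, a tunnel protein and the least abundant of the 76 genes in CPM (10.5 ± 0.949 CPM in DMSO and 9.04 ± 1.24 CPM in enzalutamide), at -0.41. The highest upper bound was that of Mrpl34, at 0.27. Mrpl34 was at 41.8, 41.4, 43.5, 38.1 and 38.2 CPM in DMSO and at 43.7, 49.9, 47.4, 45.8 and 38.0 CPM in enzalutamide, so that 4 of 5 enzalutamide libraries were above all DMSO libraries and library 5 was below them all.

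Set side by side, 27.7% of the large and 13.8% of the small subunit genes were lower, and the difference between these shares was not tested. Of all genes tested 18.8% were lower. The contrast depended on single libraries. Without enzalutamide library 2, 25 of the 76 genes were lower, and the shares of the subunits came closer together. The genes gained were Mrpl27, Mrpl43 and Mrpl50 in the large subunit and Mrps7, Mrps14, Mrps15, Mrps26 and Mrps27 in the small subunit. Counted by place in the ribosome rather than by symbol, which moves Mrps30 and Mrps18a to the large subunit and leaves out Mrps36, 13 of 49 large and 3 of 26 small subunit genes were lower. The summed level of the large subunit genes was 2567 ± 54.3 CPM in DMSO and 2415 ± 141 CPM in enzalutamide, and that of the small subunit genes 1527 ± 33.6 and 1462 ± 89.4 CPM (SD, n = 5). The ratio of the sums was 1.68, 1.68, 1.68, 1.69 and 1.68 in DMSO and 1.68, 1.63, 1.65, 1.65 and 1.65 in enzalutamide. Enzalutamide libraries 2 to 5 were below every DMSO library, and library 1 was within the DMSO range. Without enzalutamide library 5 the small subunit median was 0.00038 and the large subunit median -0.05. Together the 76 genes took 0.404 ± 0.00943% of all counts in DMSO and 0.392 ± 0.0219% in enzalutamide.

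**Figure D4:**
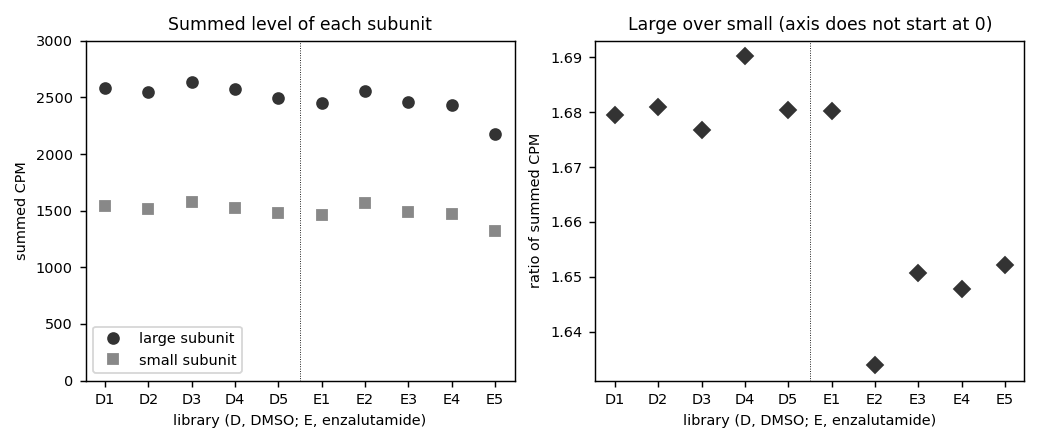
Left, the summed CPM of the 47 large and the 29 small subunit genes in each DMSO (D) and enzalutamide (E) library; right, their ratio, on an axis that does not start at 0. Both sums are lowest in enzalutamide library 5 (2179 and 1319 CPM), and the ratio is 1.68 to 1.69 in DMSO and 1.63 to 1.68 in enzalutamide.

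Grouped by origin, 10 of 29 mitochondria-specific proteins of the ribosome were lower and 0 higher (median log2 fold change -0.09; also 0 higher at an unadjusted p under 0.05 and with DESeq2 or limma-voom). In comparison, 6 of 46 with a bacterial homologue were lower and 1 higher (median -0.05). The lower shares were thus 34.5% and 13.0%, on either side of the 18.8% of all genes tested. The same order held within the large subunit by place, with 7 of 19 against 6 of 30 lower. In the small subunit it was 3 of 10 against 0 of 16 by edgeR (2 at an unadjusted p under 0.05, and 0 by DESeq2 or limma-voom). Some of the 16 were called lower in other alternatives. With GC and length trends removed these were Mrps7, Mrps11 and Mrps15. Without enzalutamide library 2 they were Mrps7, Mrps14 and Mrps15, and the mitochondria-specific Mrps26 and Mrps27 were gained too. Mrps14 was also called with a block for the replicate number, and Mrps2 without DMSO library 1. The calls lost in some alternative (Mrpl44, Mrpl41, Mrpl46, Mrps34 and Mrpl42) were all of mitochondria-specific proteins. Mrpl41, Mrps34 and Mrpl42 were lost without enzalutamide library 5. All 6 falls with a bacterial homologue were kept in all 20 alternatives. The contrast by origin thus rested in part on the less secure calls. These groupings are descriptions and were not tested.

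Levels per length differed widely between the genes, although the proteins are mostly present in 1 copy per ribosome. On the scale of CPM per kilobase of the principal transcript in DMSO, available for 75 genes, the median was 36.8, and 51 genes lay within 2-fold of it. The medians of the large and the small subunit were 37.7 and 36.8. Mrpl42 was highest at 189, followed by Mrpl30 at 128 and Mrpl12 at 110, the last being a protein present in several copies. Mrps16 (5.91), Mrpl32 (5.96) and Mrpl35 (6.93) were lowest, 32.0-fold below the top in the case of Mrps16. These levels depend on the transcript chosen for the length, and long annotated 3′ ends lower them.

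The genes lay on 17 chromosomes, often back to back with another gene. Of the 75 with a position, 32 (42.7%) had a gene starting within 1000 bases on the opposite strand, against 16.8% of the 12524 tested protein-coding genes. Of these 32 neighbours 8 were lower and 5 higher in enzalutamide, with a median log2 fold change of 0.03. Of the 9 lower genes with such a neighbour, 2 had a neighbour that was also lower. These were Mrpl51 with the condensin gene Ncapd2 (-0.23, SE 0.0262, adjusted p = 2.52e-06 by edgeR) and Mrpl18 with the chaperonin gene Tcp1 (-0.26, SE 0.0294, adjusted p = 1.98e-06). In 2 others the neighbour was higher, Apba3 beside Mrpl54 (0.13, adjusted p = 0.0235 by edgeR) and Pnpla7 beside Mrpl41 (0.33, adjusted p = 0.00136). Fau, which starts 59 bases from Mrpl49, had a log2 fold change of 0.02 (adjusted p = 0.817 by edgeR).

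Mrpl46 and Mrps11 are such a pair within the family, with starts 412 bases apart and regions that share 141 bases. Mrpl46 was lower (-0.20, adjusted p = 0.0207 by edgeR) and Mrps11 had a log2 fold change of -0.14 that did not pass (SE 0.0688, adjusted p = 0.113). Exons of 31 of the genes, 9 of them lower, overlap another annotated gene. They include Mrpl18 with Tcp1, Mrpl49 with Syvn1 and Mrps25 with Nr2c2 on the opposite strand, and Mrps6 with Slc5a3 on the same strand. No source used here gives the strand setting of the counting, and reads could have been exchanged between such genes.

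Both ribosomal RNAs of mitochondria had log2 fold changes below 0, and 1 of them passed; the difference between them was not tested. The large subunit RNA mt-Rnr2 was at 811, 833, 747, 747 and 1011 CPM in DMSO and at 639, 699, 700, 608 and 689 CPM in enzalutamide, with no overlap between the groups (log2 fold change -0.31, SE 0.0665, adjusted p = 0.00112). The small subunit RNA mt-Rnr1 was at 220, 209, 173, 162 and 225 CPM in DMSO and at 198, 200, 191, 155 and 189 CPM in enzalutamide, with overlapping groups and no call (-0.08, SE 0.0830, adjusted p = 0.480). Capture of polyadenylated RNA takes up these RNAs only in part, so the levels do not measure their abundance. All mitochondrially encoded genes together took 6.18% to 6.64% of counts in DMSO and 7.21% to 7.88% in enzalutamide, the opposite direction to mt-Rnr2.

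Other proteins of the ribosome, named by other symbols, were mixed. Of 7 such genes 2 were higher and 1 lower. Dap3, a GTP-binding protein of the small subunit, was at 95.8, 94.4, 90.4, 94.0 and 96.2 CPM in DMSO and at 102, 107, 108, 111 and 98.7 CPM in enzalutamide. All enzalutamide libraries were above all DMSO libraries (log2 fold change 0.16, SE 0.0366, adjusted p = 0.00225). Mrpl57, listed in the table under an older symbol, was higher (0.18, adjusted p = 0.0229 by edgeR), and Ptcd3, a small subunit protein, was lower (-0.11, adjusted p = 0.0249). Chchd1, Aurkaip1, Gadd45gip1 and Mrpl58 did not pass.

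Of 11 translation factors of mitochondria, 2 were lower and 1 higher. Gfm1, the elongation factor that moves the ribosome along the mRNA, showed the largest fall of this machinery. It was at 255, 266, 280, 271 and 271 CPM in DMSO and at 196, 206, 209, 198 and 201 CPM in enzalutamide, so that the groups were far apart (log2 fold change -0.41, SE 0.0316, adjusted p = 2.33e-08). The value without enzalutamide library 5 was the same to 2 decimals (-0.41). Tufm, the factor that brings aminoacyl-tRNA to the ribosome, was lower by less (-0.13, SE 0.0384, adjusted p = 0.0132). Guf1, a homologue of the bacterial factor LepA, was at 81.3, 74.3, 75.0, 74.4 and 73.3 CPM in DMSO and at 87.1, 96.4, 93.9, 91.3 and 94.9 CPM in enzalutamide. Its groups did not overlap, in the higher direction (log2 fold change 0.29, SE 0.0391, adjusted p = 1.35e-05).

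Of 28 genes for assembly of the ribosome and maturation of its RNA, 5 were higher and 0 lower by edgeR, with a median log2 fold change of 0.01. At an unadjusted p under 0.05, 1 was lower, and DESeq2 and limma-voom each called 1 lower. The 5 rises were Ngrn, needed in human cells for the large subunit RNA (0.35, SE 0.0772), the GTPases Noa1 (0.31, SE 0.0435) and Mtg1 (0.23, SE 0.0596), the rRNA methyltransferase Mrm1 (0.27, SE 0.0808) and the ribosome-binding factor Rbfa (0.13, SE 0.0468). Noa1, a factor needed for mitochondrial translation, was at 62.9, 56.9, 57.8, 54.5 and 62.1 CPM in DMSO and at 74.0, 75.3, 73.1, 72.7 and 69.5 CPM in enzalutamide, with no overlap (adjusted p = 2.39e-05 by edgeR). The share of higher genes (17.9%) was close to the 19.0% of all genes.

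Among 6 genes that stabilise mitochondrial mRNA or insert new proteins, Lrpprc was higher (0.13, SE 0.0274, adjusted p = 0.000971 by edgeR) and Letm1 lower (-0.13, adjusted p = 0.0148). Of 10 genes of mitochondrial transcription and DNA maintenance 0 passed by edgeR, DESeq2 or limma-voom, and 0 at an unadjusted p under 0.05, with Polrmt, the RNA polymerase, at -0.04 (SE 0.0504) and Tfam, its activator, at -0.02 (SE 0.0388).

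Among 10 nuclear regulators of mitochondrial gene expression, 2 were higher and 3 lower. Ppargc1a, the coactivator PGC-1α, was at 207, 216, 211, 211 and 222 CPM in DMSO and at 261, 268, 292, 273 and 297 CPM in enzalutamide, with all enzalutamide values above (log2 fold change 0.38, SE 0.0373, adjusted p = 4.09e-07). Myc, a growth regulator, was low in both groups, at 0.751, 1.09, 0.387, 0.385 and 0.577 CPM in DMSO and at 6.02, 3.35, 3.93, 3.81 and 3.80 CPM in enzalutamide. It was 6.55-fold higher, with no overlap (log2 fold change 2.71, SE 0.266, adjusted p = 4.21e-07). Nrf1, whose protein binds the NRF1 motif named above, was lower (-0.20, SE 0.0496, adjusted p = 0.00365). Gabpb1, a partner subunit of the ETS factor GABP, was also lower (-0.16, adjusted p = 0.0136 by edgeR). So was the coactivator gene Pprc1 (-0.10, adjusted p = 0.0343 by edgeR). Gabpa (-0.01, SE 0.0411), Gabpb2 (-0.06, SE 0.0450) and Yy1 (-0.07, SE 0.0385) did not pass. The DMSO mean was 169 CPM for Gabpb2 and 45.4 CPM for Gabpb1. Over all 74 partner genes 11 were higher and 8 lower, with a median log2 fold change of -0.01. These shares, 14.9% and 10.8%, were below the 19.0% and 18.8% of all genes tested.

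**Figure D5:**
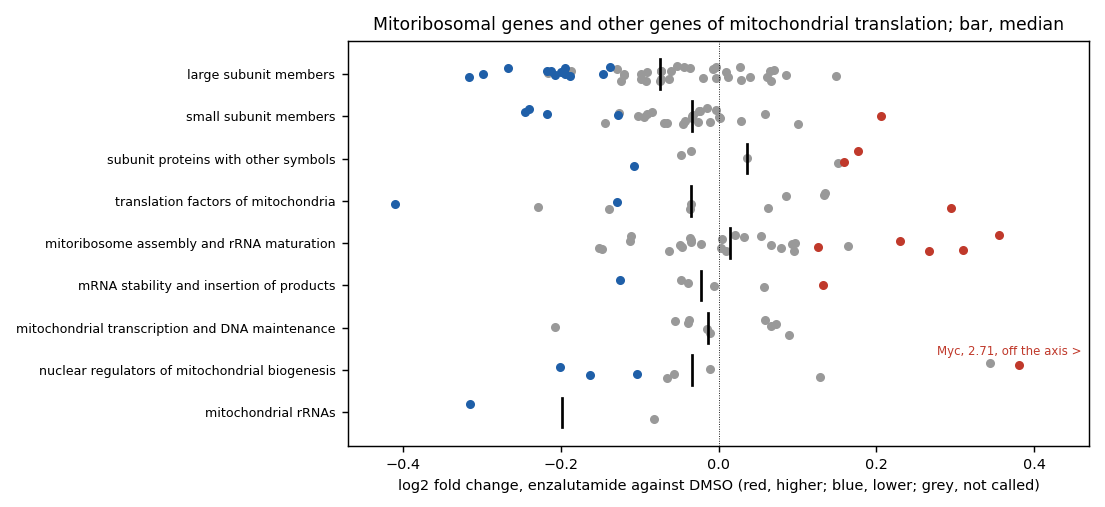
Log2 fold changes of the large and small subunit genes and of the 7 lists of partner genes; each point is a gene, blue called lower, red called higher and grey not called, and the bar is the list's median. Gfm1 (-0.41) is the lowest point, Myc (2.71) lies off the axis, and the assembly list has red points (5) but no blue ones.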

How the data were processed

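Polyadenylated RNA of αTC1 cells was sequenced in 5 DMSO and 5 enzalutamide libraries, grouped by title and treatment label. The authors deposited whole-number counts per Ensembl gene for 33212 genes. HISAT2, StringTie, DESeq2 and the mm10 build appear in the submitters' processing notes without versions or roles. The labels do not say whether counts came from reads or transcript estimates. A second, normalized table was not used here, and 0 columns of per-library values of the count table were left unused.

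Counts were filtered with filterByExpr, normalized with TMM and tested in R 4.3.3 with edgeR 4.0.16 (quasi-likelihood test, no covariates, Benjamini-Hochberg adjustment over 14156 genes, threshold 0.05). SEs were derived from the F statistic of each gene, and 95% intervals use a normal quantile, so they are slightly narrower than the test itself implies. The biological coefficient of variation was 8.39%. Within-group pairs of libraries differed by more than counting error (chi-square over its degrees of freedom 9.24 to 38.0), so 10 libraries were counted. At this depth 3 counts equal 0.0439 to 0.0497 CPM.

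Positions and lengths came from GENCODE M21 (GRCm38/mm10), in which 31975 identifiers were found, and that of Mrpl33 was not. CPM per kilobase used the principal transcript, a choice made after the files were seen. Start regions came from RefSeq, whose starts can differ from those of GENCODE. Partner genes were matched by identifier, with 2 listed symbols unmatched, and Mrpl57 and Mrpl58 were added to a list after the files were seen.

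The genes, lists and tests were chosen with earlier results of these data known. The rule for named genes took up to 6 called genes with the largest rise or fall per subunit, fixed members and partners, the 3 highest and 3 lowest per length, and up to 3 called genes of each partner list by adjusted p. Other called genes, Mrps11, Mrps6, the neighbouring genes and the regulators named beyond these were chosen after their values were seen, as was the group of short genes.

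Alternatives were relative log expression and total-count scaling, a minimum mean CPM of 1 or no filter, a block for the replicate number, DESeq2 1.42.0, limma-voom (limma 3.58.1), removal of per-library trends with GC content and length (13985 genes with values), omission of mitochondrially encoded genes and Gcg, and leaving out each library. Removal of these trends without enzalutamide library 5 was added after the data were seen.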

Additional observations from a re-analysis of the deposited data

Results flagged for a closer look

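In groups of 5 libraries, 11 of the 122 groups tested had a library far from the other 4 by Dixon's criterion at 95%. Chance flags about 1 in 20 groups. Enzalutamide library 5 was the distant, low one for 5 subunit genes: Mrpl12 at 113 CPM, Mrpl45 at 30.9 CPM, Mrpl44 at 29.3 CPM, Mrps5 at 87.8 CPM and Mrpl32 at 14.7 CPM. Enzalutamide library 4 was high for Mrpl3 at 35.5 CPM and low for mt-Rnr1 at 155 CPM. DMSO library 3 was high for Mrpl42 at 135 CPM. The call of Mrpl42 was lost without that library, as it was without any other single library except enzalutamide 2.

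Among partner genes, DMSO library 1 was high for Guf1 at 81.3 CPM. Enzalutamide library 1 was high for Letm1 at 109 CPM and for Myc at 6.02 CPM. Myc was higher in every enzalutamide library also with this one set aside, the next being at 3.93 CPM.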

How the results depend on the processing

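The count of lower subunit genes was 17 and ran from 13 (total-count scaling) to 23 (GC and length trends removed), and from 14 to 25 with a library left out. Of the 18 calls, 13 were kept in all 20 alternatives run. Those lost in some were Mrpl44, Mrpl41, Mrpl46, Mrps34 and Mrpl42. The count of higher subunit genes was 2 under total-count scaling and with the replicate block, 1 of them (Mrpl34) in the large subunit, and 4 with GC and length trends removed without enzalutamide library 5, 2 in each subunit. With a library left out it was 1 to 2, and 0 to 1 in the large subunit. Lower small subunit genes were 7 with the trends removed and 3 to 9 with a library left out (9 without enzalutamide library 2), against 4. Lower partner genes were 4 under total-count scaling and 15 with the trends removed, against 8. The cause was not tested.

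Total-count scaling moved the median of all genes to 0.04 and the split of all calls from 2696 higher and 2662 lower to 3285 and 2131, and the subunit genes then had a median of -0.03 with 47 below 0. With the trends removed the split was 2421 and 3239. The small subunit median ran from -0.05 to 0.00038, so that its sign is not secure. No called gene changed sign.

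Replicate numbers did not pair the libraries (correlations of same-numbered libraries -0.0078 to 0.051, and 3 of 5 DMSO libraries correlated best with their own number). With the replicate block 20 subunit genes were lower and 2 higher. Every subunit gene had at least 466 counts in each library.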
